A study of Mus musculus with 30 samples.

Results

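Male wild-type C57BL/6N mice received vehicle or 1 mM cadmium chloride (CdCl2) for 6 weeks in vivo, and the RNA of their pancreatic islets was sequenced to ask which transcripts differ after this exposure. The labels mark 5 libraries as vehicle and 4 as cadmium at this time, 9 of the 30 libraries of the series, and no other library entered the analysis. Both groups share strain, sex, genotype and tissue. Route of dosing, composition of the vehicle and age at dosing were not given in the sources used here. A Biocoll gradient was used to purify the islets, which can leave exocrine, vascular, stromal and blood cells beside the endocrine cells, and RNA was extracted with Trizol. The labels do not state whether each library of a group is from its own mouse, so p-values reflect the spread among libraries alone, and that spread may be technical. Library totals were 49564350 to 55504925 counts in vehicle and 49953778 to 58366797 in cadmium libraries, with 25788 to 26768 genes detected.

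Islets are endocrine clusters in which beta cells make insulin, alpha cells glucagon, delta cells somatostatin and PP cells pancreatic polypeptide. Beta cells load zinc into insulin granules, and cadmium, which resembles zinc in its chemistry and binds thiols, can enter cells through metal importers. In many tissues cadmium sets free zinc that activates the transcription factor MTF1, which binds metal response elements and drives the metallothionein genes Mt1 and Mt2 and the zinc exporter gene Slc30a1. It is also known to activate NRF2, the regulator of antioxidant genes such as Hmox1, and the heat shock and integrated stress responses. NF-kB, a family of transcription factors made of subunits such as the one encoded by Rel, drives its own inhibitors Nfkbia and Tnfaip3.

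The promoter windows of 5 genes are shown because these pathways are described below: Mt1 and Mt2 report on metal sensing, and Tnfaip3, Nfkbia and Rel had the smallest p-values of the NF-kB list. The NF-kB genes were thus picked from these same data, so matches in their windows lend no support to their values. Each window runs 5′ to 3′ on the gene's strand from 250 bases before to 50 bases after the transcript start, in RefSeq's GRCm38.p6 assembly. Capitals mark matches, on either strand, to the metal response element core (TGCACNC or TGCGCNC) in the metallothionein genes and to the kB consensus in the others. The Mt1 window lies at chr8:94178839-94179138 on the plus strand and the Mt2 window at chr8:94172368-94172667 on the plus strand.
Mt1: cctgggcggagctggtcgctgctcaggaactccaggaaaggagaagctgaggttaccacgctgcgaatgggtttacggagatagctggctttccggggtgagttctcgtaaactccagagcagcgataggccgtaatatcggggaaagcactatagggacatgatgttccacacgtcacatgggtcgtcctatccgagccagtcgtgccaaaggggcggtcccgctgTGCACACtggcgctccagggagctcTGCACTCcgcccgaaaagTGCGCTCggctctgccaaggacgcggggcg
Mt2: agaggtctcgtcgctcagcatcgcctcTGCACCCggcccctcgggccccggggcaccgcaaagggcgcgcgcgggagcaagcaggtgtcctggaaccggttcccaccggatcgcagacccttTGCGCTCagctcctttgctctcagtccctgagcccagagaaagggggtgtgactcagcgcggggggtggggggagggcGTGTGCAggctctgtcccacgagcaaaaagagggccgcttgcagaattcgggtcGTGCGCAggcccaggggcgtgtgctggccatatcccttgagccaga
The Tnfaip3 window lies at chr10:19015361-19015660, the Nfkbia window at chr12:55492598-55492897 and the Rel window at chr11:23770920-23771219, all on the minus strand.
Tnfaip3: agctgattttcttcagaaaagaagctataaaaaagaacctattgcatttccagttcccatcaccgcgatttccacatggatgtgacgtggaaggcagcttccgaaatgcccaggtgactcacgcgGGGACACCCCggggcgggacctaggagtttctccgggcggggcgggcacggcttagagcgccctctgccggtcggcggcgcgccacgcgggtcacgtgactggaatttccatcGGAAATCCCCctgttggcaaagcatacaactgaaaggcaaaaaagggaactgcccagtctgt
Nfkbia: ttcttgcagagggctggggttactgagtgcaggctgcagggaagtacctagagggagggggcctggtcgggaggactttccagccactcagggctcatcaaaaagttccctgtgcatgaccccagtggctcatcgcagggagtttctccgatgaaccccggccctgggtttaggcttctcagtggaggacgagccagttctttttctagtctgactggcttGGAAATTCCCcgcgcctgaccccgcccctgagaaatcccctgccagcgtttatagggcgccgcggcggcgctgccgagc
Rel: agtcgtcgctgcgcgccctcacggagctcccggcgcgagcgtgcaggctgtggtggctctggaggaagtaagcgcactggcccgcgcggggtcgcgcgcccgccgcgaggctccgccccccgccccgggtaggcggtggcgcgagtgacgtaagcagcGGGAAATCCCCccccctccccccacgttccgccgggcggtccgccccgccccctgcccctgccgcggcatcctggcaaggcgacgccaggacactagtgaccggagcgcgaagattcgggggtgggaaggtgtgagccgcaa
The Mt1 window holds 3 matches and the Mt2 window 4. The metal response element core occurs in 25.7% of 32851 promoter windows of this length, TGCACNC in 12.6% and TGCGCNC in 15.4%. The kB consensus occurs in 4.51% of them, with 2 matches in Tnfaip3, 1 in Nfkbia and 3 in Rel, where the matches overlap each other. Another Tnfaip3 window in the table, at chr10:19011914-19012213, holds 0 kB matches. A match describes the letters of the window and shows no binding.

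No gene passed the threshold after 6 weeks of cadmium. Of 18080 genes tested with the edgeR quasi-likelihood test, 0 (0%) had a Benjamini-Hochberg adjusted p under 0.05, and the smallest adjusted p was 0.596. At an unadjusted p under 0.05 there were 923 genes (5.11%), 474 higher (2.62%) and 449 lower (2.48%). The 4 cadmium libraries lay above all 5 vehicle libraries for 132 genes (0.73%) and below them for 130 (0.719%), together 1.45% of genes. DESeq2 called 11 of 24585 genes (0.0447%), 9 higher and 2 lower, and limma-voom called 0, with 867 genes at an unadjusted p under 0.05. Since edgeR called nothing, the words higher and lower below describe where levels stood and not a call. Fold changes are log2 of cadmium over vehicle ± SE, and levels are CPM, counts relative to library size after TMM scaling, which assumes that most genes do not differ.

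The absence of calls came with narrow intervals for most genes. The 95% interval of the fold change lay within 2-fold either way for 16190 genes (89.5%) and within 1.5-fold for 13031 (72.1%). Among the 7530 genes with a mean of 10 to 100 CPM, 99.2% had an interval within 2-fold, against 61.8% of the 3761 genes under 1 CPM. The intervals of many low genes thus reached 2-fold, while those of most genes above 10 CPM did not. Intervals are not adjusted for the 18080 genes tested, so they do not give the size of difference that would be called. Try5, with a log2 fold change of 1.53, was not called (edgeR adjusted p = 0.648).

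The libraries differed along an axis that split the vehicle group. The first principal component, 32.7% of the variance, placed vehicle libraries 1 to 3 at −32.1, −34.8 and −19.7 and vehicle libraries 4 and 5 at 25.0 and 12.3. The cadmium libraries stood at 0.883, −4.68, 31.9 and 21.2, between and beside them. Markers of immune and stromal cells followed this axis. All 27 macrophage and MHC class II genes and all 24 stellate and fibroblast genes loaded on the side of vehicle libraries 1 to 3. Over all genes tested, 8881 of 18080 did. The axis was not theirs alone. All 20 class I antigen presentation genes and all 31 genes of cholesterol and fatty acid synthesis loaded there too, but only 2 of 37 acinar genes. Results that rest on immune and stromal cells are given below with and without those libraries. The split was read from this component, on which the immune and stromal genes load. Leaving out the vehicle libraries highest in them raises their fold changes by that choice. Such values describe how far a result depends on those libraries and are no separate test.

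**Figure D1:**
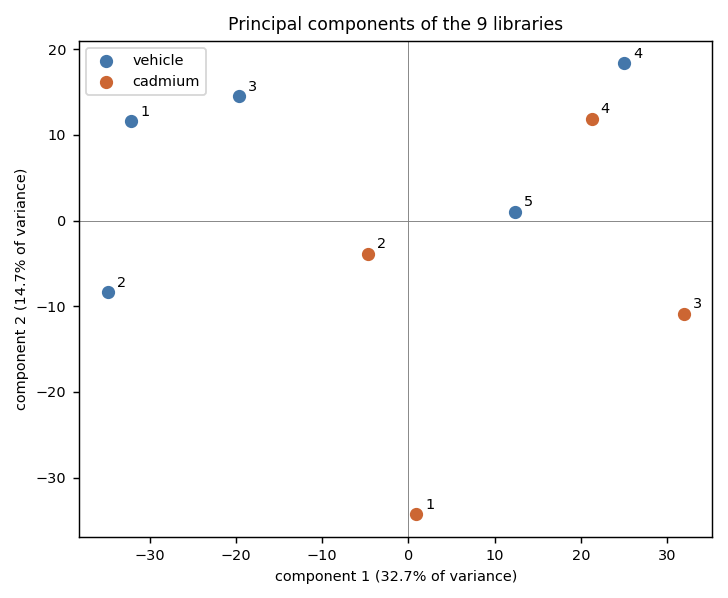
Position of the 9 libraries on the first and second principal components of log2 CPM, in component units, with vehicle libraries in blue, cadmium libraries in orange and the library number beside each point. Vehicle libraries 1 to 3 lie left of every cadmium library, and vehicle libraries 4 and 5 lie among them.

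Metallothionein transcripts, the classic readout of cadmium, did not separate the groups. Mt1 (chr8:94179082-94180327, plus strand, GENCODE on GRCm38) had levels of 165, 169.9, 154, 131 and 251 CPM across vehicle libraries 1 to 5, against 199.5, 215, 227 and 169.99 CPM across cadmium libraries 1 to 4. Vehicle library 5 held the highest level of all 9, and cadmium library 4 lay within the vehicle range. The log2 fold change was 0.22 ± 0.16 with a 95% interval of −0.13 to 0.58 (edgeR adjusted p = 0.919), so a 2-fold rise lay outside the interval. Mt2 (chr8:94172664-94173568, plus strand) had its extremes in the same libraries, at 35.3, 36.7, 31.6, 24.3 and 57.5 CPM in vehicle and 39.2, 47.4, 53.4 and 29.9 CPM in cadmium libraries. Its log2 fold change was 0.20 ± 0.23 (interval −0.31 to 0.70, edgeR adjusted p = 0.936). Both were high in vehicle library 5 and low in vehicle library 4, and the groups overlapped. Mt3, the form best known from brain, was at 1.67 CPM in vehicle and 1.96 CPM in cadmium libraries (0.23 ± 0.15), and Mt4 did not pass the filter on low counts.

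Zinc transport genes showed 1 large difference among small ones. Slc39a4 encodes ZIP4, the zinc importer whose loss causes the zinc deficiency disease acrodermatitis enteropathica, and it was at 0.367, 0.747, 0.566, 0.421 and 0.859 CPM in vehicle libraries. In cadmium libraries it was at 1.75, 2.96, 1.41 and 0.762 CPM. Cadmium libraries 1 to 3 lay above every vehicle library and cadmium library 4 within their range. The log2 fold change was 1.54 ± 0.37 (interval 0.71 to 2.36, edgeR adjusted p = 0.919, DESeq2 adjusted p = 0.0912), and it stayed between 1.14 and 1.78 when any 1 library was left out. The other Slc39 importers stood closer: Slc39a8, whose product ZIP8 can carry cadmium, was at 0.43 ± 0.23, and Slc39a14, for the related ZIP14, at 0.07 ± 0.04. Of 13 importer genes tested 9 were higher and 4 lower, with a median of 0.019, and 1 (7.69%, against 5.11% of all genes) had an unadjusted p under 0.05, Slc39a4. All 8 Slc30 genes tested were higher, each by little (median 0.062, range 0.0056 to 0.10), where 49.3% of all genes were higher, the median of all genes was −0.0019 and 0 of the 8 had an unadjusted p under 0.05. Without vehicle libraries 1 to 3, 5 of the 8 were higher (median 0.012). Slc30a1, the exporter that MTF1 drives, was at 0.10 ± 0.13, Slc30a8, which loads zinc into insulin granules, at 0.08 ± 0.07, and Mtf1 itself at 0.03 ± 0.04.

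Iron genes lay on both sides. Slc40a1 encodes ferroportin, the iron exporter of cells and abundant in macrophages, and it was at 65.5, 71.5, 75.6, 78.1 and 56.7 CPM in vehicle and 56.8, 52.4, 48.3 and 56.2 CPM in cadmium libraries. The cadmium libraries lay together at the foot of the vehicle range, 3 of 4 below all vehicle libraries. The fold change was −0.38 ± 0.09 (interval −0.58 to −0.18, edgeR adjusted p = 0.919), and −0.34 without vehicle libraries 1 to 3. Tfrc, the transferrin receptor gene through which cells take up iron, was at 0.26 ± 0.11, and only cadmium library 4 lay above the vehicle range. Of 17 iron and copper genes tested 9 were higher and 8 lower (median 0.0098), and these were the 2 with an unadjusted p under 0.05 (11.8%, against 5.11% of all genes).

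**Figure D2:**
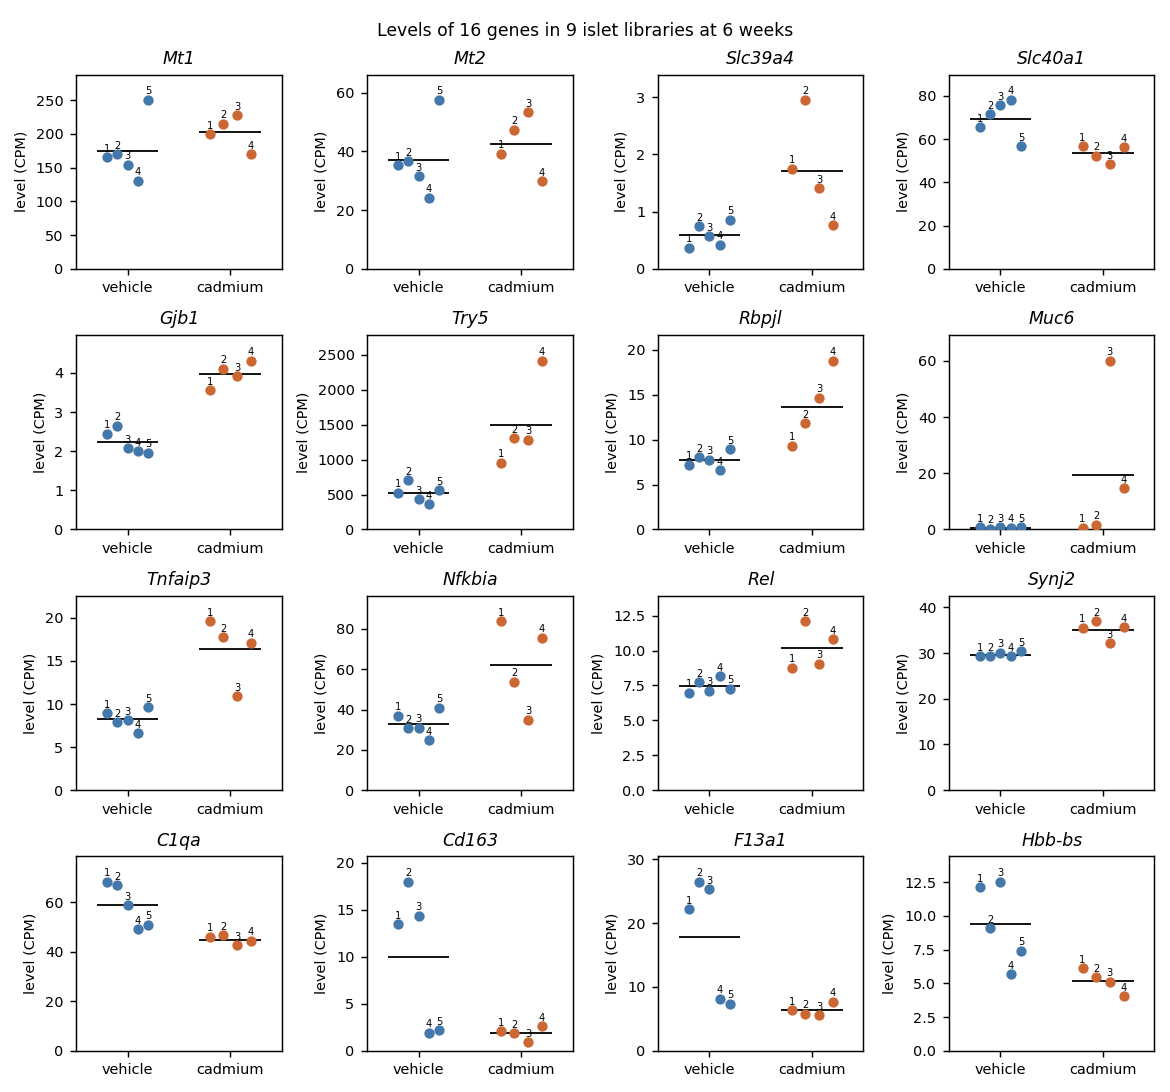
Level in CPM of 16 genes in each library, with vehicle in blue, cadmium in orange, each point carrying its library number, and the group mean as a line; each panel has its own axis from 0. Mt1 and Mt2 overlap between the groups, Gjb1, Try5, Rbpjl, Tnfaip3, Rel and Synj2 do not, and Cd163 and F13a1 are high in vehicle libraries 1 to 3 alone.

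Stress pathways known to respond to cadmium gave small values. Hmox1, the heme oxygenase gene and a sensitive target of cadmium in many cells, was at 12.0, 13.05, 10.3, 7.79 and 12.6 CPM in vehicle and 11.7, 8.70, 9.36 and 12.4 CPM in cadmium libraries (−0.08 ± 0.16, interval −0.43 to 0.26). Nqo1, a quinone reductase gene under NRF2, was at 0.0013 ± 0.12. The groups overlapped in both. Of 25 NRF2 and glutathione genes tested 14 were higher and 11 lower (median 0.0051), and 2 (8%) had an unadjusted p under 0.05, both higher, close to the 5.11% of all genes. They were Slc7a11, the cystine importer gene that feeds glutathione synthesis, and Gsta4, a glutathione transferase gene (1.04 ± 0.46). Slc7a11 was at 0.855, 1.08, 1.10, 1.34 and 2.28 CPM in vehicle and 3.10, 1.71, 2.64 and 2.32 CPM in cadmium libraries, with only vehicle library 5 inside the cadmium range (0.88 ± 0.28, edgeR adjusted p = 0.919).

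Heat shock and unfolded protein response lists had medians close to 0, and the integrated stress response list stood slightly higher. Hspa1b, for the inducible HSP70, ranged from 61.6 to 175 CPM in vehicle and from 88.6 to 168 CPM in cadmium libraries, so the spread within groups was wide (0.12 ± 0.30, interval −0.53 to 0.77). Of 20 heat shock genes 12 were higher (median 0.017) and 0 had an unadjusted p under 0.05. Hspa5, the chaperone BiP of the endoplasmic reticulum, averaged 1488 ± 127 CPM (SD, n = 5) with vehicle against 1491 ± 181 CPM (SD, n = 4) with cadmium, a fold change of 0.0022 ± 0.09. Among 22 unfolded protein response genes 11 were higher and 11 lower. Groups did not overlap for 1 of the 22, where 0.719% of all genes lay below all vehicle libraries: Derl3, which works in the removal of misfolded proteins from the endoplasmic reticulum, was at 18.6 to 25.4 CPM in vehicle and 17.3 to 18.3 CPM in cadmium libraries (−0.29 ± 0.08, edgeR adjusted p = 0.919). Ddit3, the gene of CHOP, was at 0.16 ± 0.15, and 26 of 29 integrated stress response genes were higher with a median of 0.15 and 0 at an unadjusted p under 0.05. Of all genes 49.3% were higher, with a median of −0.0019. The integrated stress list stood at 0.20 in vehicle library 5 and −0.05 in cadmium library 2 (mean log2 CPM minus the vehicle mean), so the groups overlapped, and without vehicle libraries 1 to 3 its median was 0.072. Bbc3, the gene of the pro-apoptotic protein PUMA, did not overlap, at 7.70 to 10.5 CPM in vehicle and 10.9 to 11.8 CPM in cadmium libraries (0.32 ± 0.09, edgeR adjusted p = 0.919). Of all genes 0.73% lay above all vehicle libraries in the same way. The 21 p53 target and BH3-only genes as a list split into 8 higher and 13 lower (median −0.031).

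Hormone transcripts stood near equality between the groups. Ins1 and Ins2, the insulin genes, together took 20.2 to 21.9% of counts in vehicle and 18.3 to 21.4% in cadmium libraries. Ins1 was at −0.06 ± 0.07 (interval −0.20 to 0.09) and Ins2 at −0.06 ± 0.08 (interval −0.23 to 0.10). Cadmium library 4, with the lowest insulin share, was also the library with the highest share of acinar transcripts, and with acinar counts taken out of the total the mean insulin share differed by −0.84 instead of −1.22 percentage points. Iapp, for the amyloid peptide secreted with insulin, was at 17688 to 19493 CPM in vehicle and 16927 to 17522 CPM in cadmium libraries, all 4 below all 5. The difference was small, −0.09 ± 0.05 (interval −0.20 to 0.03, edgeR adjusted p = 0.919). Gcg (glucagon) was at 0.11 ± 0.07, Sst (somatostatin) at 0.05 ± 0.08 and Ppy (pancreatic polypeptide) at 0.11 ± 0.15, with intervals that all lay within 2-fold.

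Beta cell identity genes did not stand lower. Of 29 genes tested 22 were higher and 7 lower (median 0.051, against −0.0019 over all genes), 3 (10.3%, all higher, against 2.62% of all genes on that side) had an unadjusted p under 0.05, and the 95% interval of all 29 lay within 2-fold and that of 26 within 1.5-fold. Pdx1, a master regulator of beta cells, was at 0.02 ± 0.09, Mafa, an activator of the insulin genes, at 0.17 ± 0.15, and Slc2a2, the glucose transporter gene, at 0.05 ± 0.16. The genes of smallest p were Nkx2-2 and Npy. Nkx2-2, a transcription factor needed for beta cell formation, was at 96.1, 101, 89.5, 104 and 94.9 CPM in vehicle and 105, 108, 117 and 116 CPM in cadmium libraries. Every cadmium library lay above every vehicle library, by a narrow gap between vehicle library 4 and cadmium library 1 (0.20 ± 0.05, interval 0.08 to 0.32, edgeR adjusted p = 0.919). Npy, neuropeptide Y, was at 0.44 ± 0.16. Leaving out vehicle libraries 1 to 3 gave 17 of 29 higher (median 0.015).

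The secretory machinery held no gene past the threshold. Of 30 insulin secretion genes 18 were higher and 12 lower (median 0.026), 0 had an unadjusted p under 0.05, and 29 intervals lay within 2-fold. Cacna1c and Cacna1d, which encode the calcium channels that trigger insulin release, were at 0.12 ± 0.06 and 0.04 ± 0.07. Among 21 prohormone processing and granin genes 9 were higher and 12 lower (median −0.038). At an unadjusted p under 0.05 there was 1 (4.76%, against 5.11% of all genes). It was Scg2, secretogranin 2 of the granule core, at 7108 to 8077 CPM in vehicle and 6562 to 7121 CPM in cadmium libraries (−0.18 ± 0.06, edgeR adjusted p = 0.919), where 3 of 4 lay below all vehicle libraries. Alpha cell markers (11 of 16 higher, median 0.069) and delta and PP cell markers (11 of 14 higher, median 0.072) also lay close to 0.

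**Figure D3:**
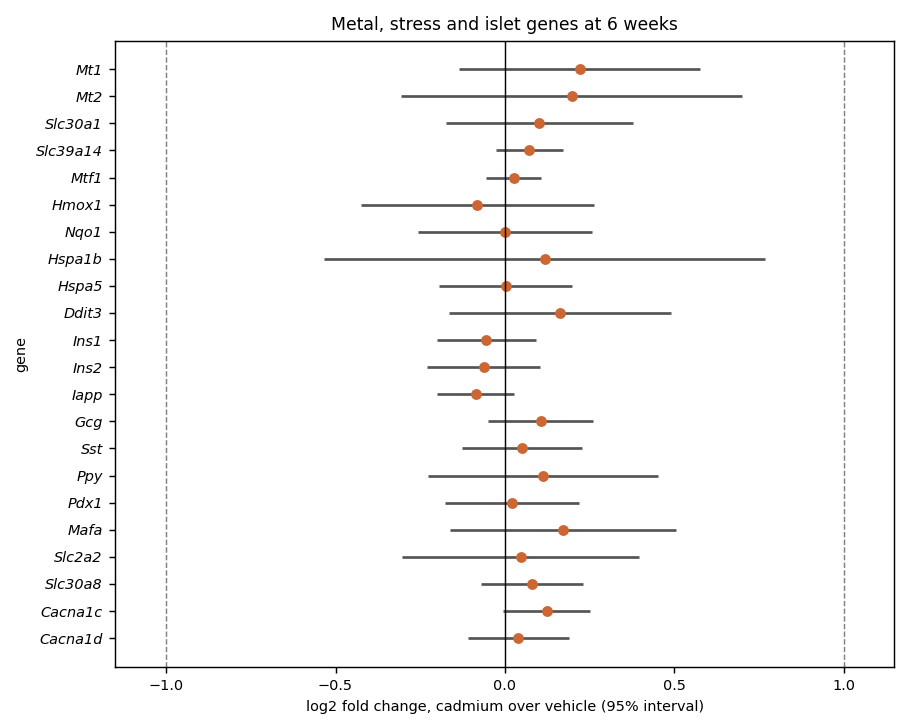
Log2 fold change of cadmium over vehicle (points) and its 95% interval (lines) for 22 metal, stress and islet genes; dashed lines mark 2-fold either way. Every interval lies within 2-fold, and every interval holds 0.

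NF-kB feedback genes held the second smallest p of all genes. Tnfaip3 (chr10:19000910-19015657, minus strand) encodes A20, the enzyme that switches NF-kB signalling off, and was at 8.90, 7.92, 8.15, 6.62 and 9.65 CPM in vehicle and 19.6, 17.7, 10.9 and 17.1 CPM in cadmium libraries. The groups did not overlap, and cadmium library 3 lay nearest to vehicle. The fold change was 0.99 ± 0.16 (interval 0.63 to 1.34, edgeR adjusted p = 0.648, DESeq2 adjusted p = 1.02e-05). Without cadmium library 3 it was 1.14 and passed (edgeR adjusted p = 0.0247), the 1 gene called there. It was 1.00 without vehicle libraries 1 to 3. Rel (chr11:23736847-23770970, minus strand), for the subunit c-Rel, was at 6.96, 7.74, 7.11, 8.15 and 7.25 CPM in vehicle and 8.78, 12.1, 9.06 and 10.8 CPM in cadmium libraries, again without overlap (0.45 ± 0.10, edgeR adjusted p = 0.919).

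The other genes of this pathway were mixed. Nfkbia, for the inhibitor IkB-alpha, was at 37.02, 30.8, 31.0, 24.8 and 40.9 CPM in vehicle and 83.8, 53.7, 34.8 and 75.7 CPM in cadmium libraries, so cadmium library 3 lay inside the vehicle range as it lay lowest for Tnfaip3 (0.91 ± 0.23, edgeR adjusted p = 0.919). Birc3, an inhibitor of cell death, was at 0.55 ± 0.23 and Relb, for the subunit of the non-canonical pathway, at 0.98 ± 0.45, both highest in cadmium library 4. These 3 genes lie outside the rule for naming genes and were picked with their values in view. Nfkb1 and Rela, for the main subunits, were at −0.01 ± 0.06 and −0.02 ± 0.08, and the cytokine genes Tnf, Ccl2 and Il1b at −0.42 ± 0.32, −0.57 ± 0.43 and −0.07 ± 0.23, named likewise. Values of the whole list ran from −0.57, that of Ccl2, to 1.53. Other cytokine genes of the list are not named, so those given do not stand for cytokine genes as a set. Of 26 genes tested 17 were higher and 9 lower (median 0.094), and 4 (15.4%), all higher, had an unadjusted p under 0.05, against 2.62% of all genes on that side. As a list they ranged from −0.53 to 0.36 in vehicle and from −0.26 to 0.29 in cadmium libraries (mean log2 CPM minus the vehicle mean). Vehicle library 4 was lowest and vehicle library 1 highest, the same ends as for macrophage markers in the vehicle group. Without vehicle libraries 1 to 3 the median was 0.52 with 23 of 26 higher, so its size depended on which vehicle libraries entered.

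Interferon and antigen presentation genes stood mostly on the lower side. Of 33 interferon response genes 29 were lower (median −0.12), and of 20 class I antigen presentation genes all 20 (median −0.14), where 50.7% of all genes were lower. The exception with the smallest p was Irf1, an interferon regulatory factor that NF-kB also drives, at 38.02 to 41.1 CPM in vehicle and 44.1, 46.7, 44.7 and 61.8 CPM in cadmium libraries (0.32 ± 0.09, edgeR adjusted p = 0.919). Usp18, a brake on interferon signalling, was at 22.52 to 25.4 CPM in vehicle and 20.4 to 22.45 CPM in cadmium libraries (−0.16 ± 0.05). H2-M3, a class I gene, was at 17.0 to 18.3 CPM in vehicle and 15.1 to 16.5 CPM in cadmium libraries (−0.17 ± 0.05). Neither overlapped. Both lists followed the split of the vehicle group: without vehicle libraries 1 to 3 their medians were 0.090 and 0.094, with 22 of 33 and 16 of 20 genes higher.

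Transcripts of acinar cells, the enzyme-making exocrine cells around the islets, stood higher with cadmium. In bulk RNA, more cells of a type and more RNA per cell cannot be told apart. All 37 acinar genes tested were higher (median 0.63), 29 of them (78.4%) with an unadjusted p under 0.05, against 2.62% of all genes on that side. Acinar genes share their source cells and are not replicates of each other. They took 3.73, 5.04, 3.38, 2.74 and 3.65% of counts in vehicle and 3.72, 5.07, 5.70 and 8.22% in cadmium libraries. Cadmium library 1 lay at the level of vehicle libraries 1 and 5, cadmium library 2 at that of vehicle library 2, and cadmium libraries 3 and 4 above every vehicle library. The mean share was 3.71% ± 0.839 (SD, n = 5) and 5.68% ± 1.89 (SD, n = 4), a difference of 1.97 percentage points that was 1.12 points without cadmium library 4.

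Within the list, genes differed in how far they stood from vehicle. Try5 (chr6:41311233-41316841, minus strand), a trypsinogen gene, was at 523, 706, 435, 359 and 559 CPM in vehicle and 957, 1302, 1286 and 2416 CPM in cadmium libraries, without overlap (1.53 ± 0.26, interval 0.96 to 2.10, edgeR adjusted p = 0.648). Prss3, another trypsinogen gene, was at 9.01 to 31.39 CPM in vehicle and 31.43 to 60.8 CPM in cadmium libraries, touching at vehicle library 3 and cadmium library 3 (1.502 ± 0.34). Trypsinogen genes are near-identical copies, and how reads mapping to several of them were counted is not given in the sources used here, so their separate values are uncertain. Rbpjl, which encodes a subunit of the acinar transcription complex PTF1, was at 6.58 to 8.95 CPM in vehicle and 9.33, 11.8, 14.7 and 18.8 CPM in cadmium libraries, also without overlap (0.83 ± 0.17, edgeR adjusted p = 0.919). At the other end Bhlha15, the MIST1 gene of secretory cells, was at 0.14 ± 0.12 and Pnliprp1, a lipase-related gene, at 0.28 ± 0.21, both picked with their values in view. With the acinar share of each library as a covariate the median of the list was 0.056, Try5 was at 0.85 and Rbpjl at 0.39, none with a call. That share is summed from these same genes and differed between the groups. The smaller values therefore follow from how the covariate is built.

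Gjb1 (chrX:101376378-101385629, plus strand) had the smallest p of all genes. It encodes connexin 32, a gap junction protein of liver and of pancreatic acinar cells, and was at 2.44, 2.65, 2.08, 2.01 and 1.96 CPM in vehicle and 3.56, 4.10, 3.92 and 4.32 CPM in cadmium libraries. The groups were tight and did not overlap (0.83 ± 0.12, interval 0.56 to 1.104, edgeR adjusted p = 0.596, DESeq2 adjusted p = 1.02e-05). The fold change was 0.67 with the acinar share as a covariate and 0.79 to 0.90 when any 1 library was left out.

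Genes of mucus-secreting and duct epithelium stood higher in some cadmium libraries than in others. Muc6, a gel-forming mucin, was at 0.855, 0.255, 0.731, 0.582 and 0.739 CPM in vehicle and 0.675, 1.73, 60.2 and 14.6 CPM in cadmium libraries. Cadmium library 1 stood among the vehicle libraries, and cadmium libraries 3 and 4 carried the fold change of 4.92 ± 1.12 (edgeR adjusted p = 0.919, DESeq2 adjusted p = 0.0135), which was 3.17 without cadmium library 3. Agr2, a disulfide isomerase of mucus-making cells, was at 0.110 to 0.340 CPM in vehicle and 0.417, 0.489, 3.75 and 1.54 CPM in cadmium libraries (2.87 ± 0.65), with cadmium library 3 again highest and no overlap. With 397 reads in all, Agr2 passed the count filter only because of its cadmium libraries. Its place among the higher genes carries that selection. Cftr, for the chloride channel of duct cells, had a fold change of 1.39 ± 0.41, with 3.16 CPM in cadmium library 3 and at most 1.133 CPM in the other libraries, and of 0.74 without that library. Krt19, a keratin of duct cells, was at 8.83 CPM in vehicle library 5 and 9.76 to 12.4 CPM in cadmium libraries 1 to 3 but 2.27 CPM in cadmium library 4 (1.03 ± 0.47). Of 18 ductal genes tested 15 were higher and 3 lower (median 0.11), 2 (11.1%) of them with an unadjusted p under 0.05, where 5.11% of all genes had one. Their summed level overlapped, from 748 to 804 CPM in vehicle and 758 to 858 CPM in cadmium libraries.

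A few genes of smallest p belong to none of these groups. Synj2 (chr17:5941280-6044290, plus strand), a lipid phosphatase gene of vesicle traffic, was at 29.3 to 30.4 CPM in vehicle and 35.6, 36.97, 32.1 and 35.7 CPM in cadmium libraries, a small step between tight groups (0.24 ± 0.04, edgeR adjusted p = 0.919, DESeq2 adjusted p = 0.0231). Gmds, an enzyme of GDP-fucose synthesis, was at 27.3 to 29.0 CPM in vehicle and 24.3 to 25.6 CPM in cadmium libraries (−0.16 ± 0.04). Ptma, prothymosin alpha, was at 34.6 to 37.03 CPM and 30.8 to 34.0 CPM (−0.16 ± 0.04), with several processed copies in the genome that could take reads. Kcnj15, a potassium channel gene, was at 0.663 to 0.987 CPM in vehicle and 0.377 to 0.547 CPM in cadmium libraries (−0.78 ± 0.19). None of these 4 overlapped between the groups, which 1.45% of all genes also showed, and the edgeR adjusted p of Gmds, Ptma and Kcnj15 was 0.919. DESeq2 also called 2 genes with clone names, 5430419D17Rik (1.17) and 1810009J06Rik (2.18), named after their values were seen.

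Immune cell transcripts stood lower with cadmium in a comparison that rested on vehicle libraries 1 to 3. All 27 macrophage and MHC class II genes tested were lower (median −0.37), 13 (48.1%) with an unadjusted p under 0.05 against 2.48% of all genes on that side. Cd163, a scavenger receptor of resident macrophages, was at 13.5, 18.0, 14.3, 1.91 and 2.20 CPM in vehicle and 2.09, 1.88, 0.938 and 2.60 CPM in cadmium libraries. Vehicle libraries 4 and 5 thus lay inside the cadmium range, and the fold change of −2.42 ± 0.67 was −0.13 without vehicle libraries 1 to 3. F13a1, a clotting factor subunit made by macrophages, showed the same steps, 22.2, 26.5, 25.3, 8.13 and 7.37 CPM against 6.34, 5.78, 5.59 and 7.66 CPM (−1.50 ± 0.38, and −0.29 without those libraries). C1qa, of complement C1q, was the exception without overlap, at 68.3, 66.9, 58.8, 49.2 and 50.9 CPM in vehicle and 46.2, 46.6, 42.6 and 44.4 CPM in cadmium libraries (−0.39 ± 0.10, edgeR adjusted p = 0.919, and −0.16 without those libraries). Without vehicle libraries 1 to 3 the median of the list was −0.014, with 13 of 27 genes higher, a shift that this choice of libraries shapes. Its summed level was 585 to 1101 CPM in vehicle and 466 to 758 CPM in cadmium libraries.

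Antibody genes were low in 3 of 4 cadmium libraries. Of 19 lymphocyte and plasma cell genes tested, of 24 listed, 18 were lower (median −0.504), and 4 (21.1%) had an unadjusted p under 0.05, against 2.48% of all genes on that side. Igha, the constant region of IgA, was at 2.95, 10.5, 12.4, 3.29 and 2.42 CPM in vehicle and 2.34, 2.52, 0.833 and 0.527 CPM in cadmium libraries (−2.02 ± 0.62). Iglc2, of the lambda light chain, was at 1.98 to 12.9 CPM in vehicle and 0.377, 2.43, 0.0347 and 0.781 CPM in cadmium libraries (−2.77 ± 0.82). Cadmium library 2 reached the vehicle range in both, and as a list it stood at 0.43 against −2.63 to −0.86 in the other cadmium libraries (mean log2 CPM minus the vehicle mean). The variable segments Iglv2 (−3.88 ± 0.88) and Ighv6-6 were among the 10 lower genes of smallest p. Ighv6-6 had 0 reads in 3 cadmium libraries and 0.0376 CPM in cadmium library 2, against 0.0400 to 0.393 CPM in vehicle. With 74 reads in all, it passed the count filter through vehicle libraries alone, so its place among the lower genes carries that selection. Segments of this family are near-identical, so reads cannot be placed among them with certainty. The median of the list was 0.069 without vehicle libraries 1 to 3 and −1.28 without cadmium library 2.

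Cd209f and Cytl1, the lower genes called by DESeq2, followed the same vehicle libraries. Cd209f, a C-type lectin gene of the macrophage-related CD209 cluster, was at 1.95, 1.59, 1.22, 0.522 and 0.340 CPM in vehicle and 0.218, 0.207, 0.122 and 0.332 CPM in cadmium libraries (−2.36 ± 0.53, DESeq2 adjusted p = 0.0111). Cytl1, a secreted cytokine-like protein, was at 2.67, 2.55, 1.68, 0.622 and 0.839 CPM in vehicle and 0.636, 0.132, 0.330 and 0.254 CPM in cadmium libraries (−2.31 ± 0.53, DESeq2 adjusted p = 0.0102). Vehicle libraries 1 to 3 were highest in both, and without them the fold changes were −0.97 and −1.12. Their edgeR adjusted p with all libraries was 0.919.

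Blood and stromal cell markers showed much the same ordering by gene, though not in summed stromal level. The globin gene Hbb-bs was at 12.1, 9.08, 12.5, 5.66 and 7.41 CPM in vehicle and 6.12, 5.46, 5.12 and 4.02 CPM in cadmium libraries (−0.85 ± 0.23), with 3 of 4 cadmium libraries below all vehicle libraries, and 5 of 6 erythroid genes were lower (median −0.74, and −0.0077 without vehicle libraries 1 to 3). Globin copies share sequence, so single globin values are uncertain. Acta2 and Tagln, contractile genes of stellate and smooth muscle cells, were at −1.33 ± 0.45 and −1.23 ± 0.38, with Acta2 at 54.0, 60.4, 27.4, 13.1 and 16.7 CPM in vehicle and 20.8, 13.1, 11.3 and 9.59 CPM in cadmium libraries. Of 24 stellate and fibroblast genes 21 were lower (median −0.12), while without vehicle libraries 1 to 3 the median was 0.52 with 22 of 24 higher. The summed level of this list overlapped, from 489 to 917 CPM in vehicle and 484 to 932 CPM in cadmium libraries. Cadmium library 1 was the highest of all 9 libraries in that sum. Of 20 endothelial genes 17 were lower (median −0.13), and without those libraries 17 were higher (median 0.10). The sign of these stromal lists therefore turned with the vehicle libraries used, a turn that the choice of libraries shapes.

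**Figure D4:**
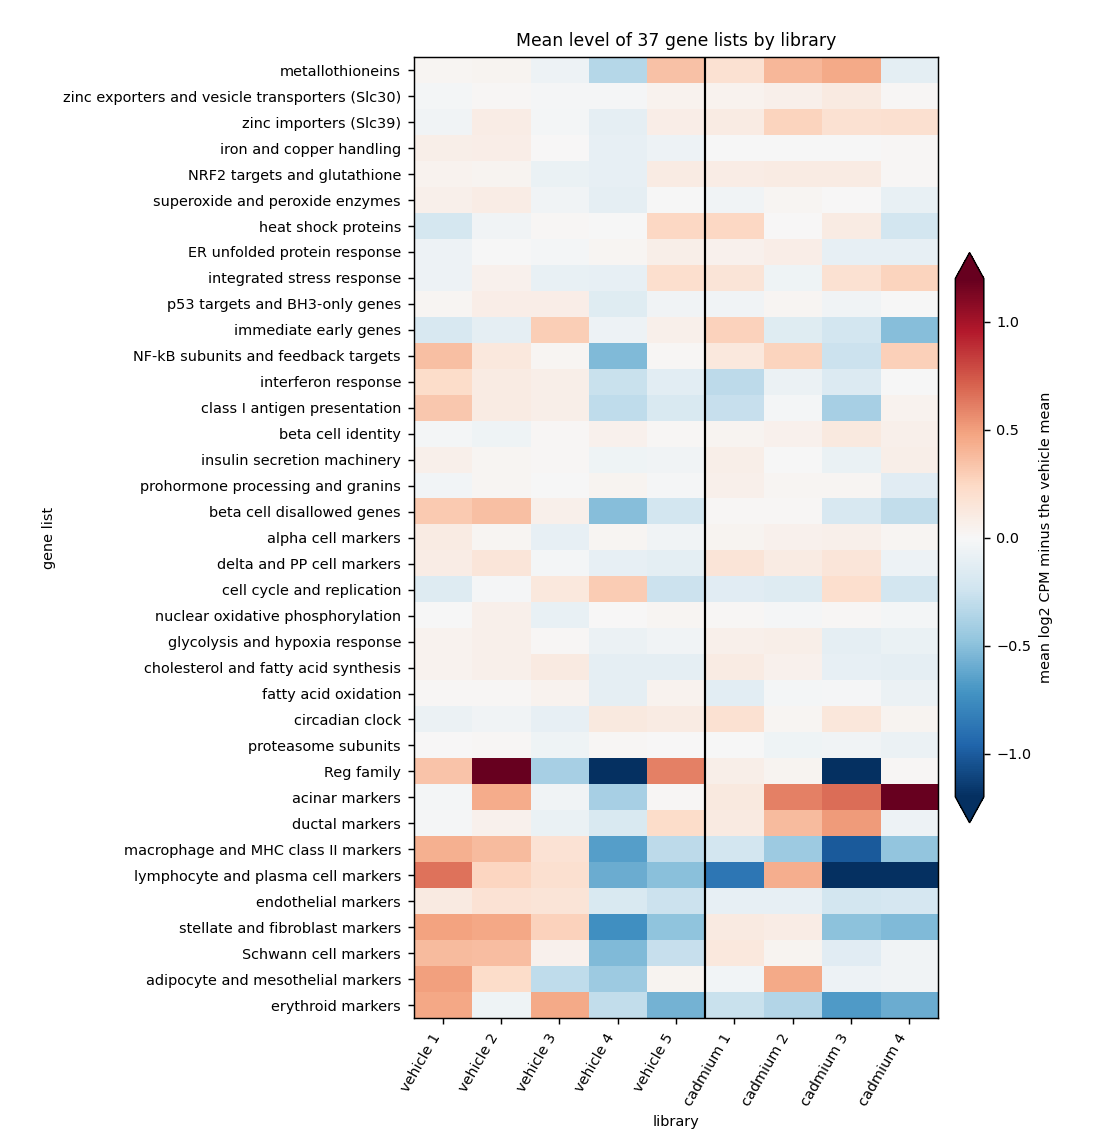
Mean log2 CPM minus the vehicle mean of 37 gene lists (down the side) in each library (across; the black line divides vehicle from cadmium), with red above and blue below the vehicle mean and the colour scale saturated at its ends. Macrophage and stellate lists split vehicle libraries 1 to 3 from 4 and 5, and the acinar list is highest in cadmium library 4.

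Energy and housekeeping lists were measured closely and differed little. Of 31 proteasome subunit genes 27 were lower with a median of −0.041, 4 (12.9%, against 2.48% of all genes on that side) had an unadjusted p under 0.05, and 5 lay below all vehicle libraries, against 0.719% of all genes. Psmb2, a beta subunit, was at 44.2 to 47.7 CPM in vehicle and 41.3 to 43.7 CPM in cadmium libraries (−0.11 ± 0.04). Psmd8, of the regulatory particle, was at 52.9 to 56.6 and 50.3 to 52.0 CPM (−0.09 ± 0.03). All 31 intervals lay within 1.5-fold. Of 47 nuclear oxidative phosphorylation genes 32 were lower (median −0.020), and of 29 fatty acid oxidation genes 24 (median −0.034). Of 19 clock genes 16 were higher (median 0.090, and 0.0031 without vehicle libraries 1 to 3). Cell cycle genes (28 of 36 lower, median −0.10), immediate early genes (21 of 26 lower, median −0.12) and genes of cholesterol and fatty acid synthesis (23 of 31 lower, median −0.024) had at most 2 genes each at an unadjusted p under 0.05. Their shares were 2.78%, 7.69% and 0%, against 5.11% of all genes. Egr2, an immediate early transcription factor gene, was at 0.619 to 1.17 CPM in vehicle and 0.156 to 0.616 CPM in cadmium libraries, a gap narrower than the spread in either group (−1.01 ± 0.36, edgeR adjusted p = 0.919). All 37 genes encoded by mitochondrial DNA were listed at 0 in these libraries and were not analysed.

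The remaining lists added no gene past the threshold. Reg family genes, secreted lectins that acinar cells and injured islets make, spread widely within groups. Reg2 was at 16.4, 19.8, 5.32, 1.45 and 29.4 CPM in vehicle and 11.5, 4.29, 1.61 and 4.47 CPM in cadmium libraries, with overlapping groups (−1.41 ± 0.74). Of 6 such genes 4 were lower (median −0.38), but the median was 0.025 without vehicle library 2, −0.17 without cadmium library 3 and 0.14 without vehicle libraries 1 to 3, so neither its sign nor its size held. Of 18 superoxide and peroxide enzyme genes 14 were lower (median −0.049), and of 30 glycolysis and hypoxia genes 20 (median −0.023). Genes that mature beta cells keep silent were lower in 14 of 24 cases (median −0.016), and without vehicle libraries 1 to 3 higher in 23 of 24 (median 0.25), another list that turned with those libraries. Schwann cell genes were lower in 8 of 11 cases (median −0.072), but across the alternative fits that median ran from −0.34 to 0.30. Adipocyte and mesothelial genes were lower in 3 of 6 cases (median −0.066, and −0.12 to 0.15 across those fits).

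Small shifts in the lists of abundant genes went together with transcript length. Among 9042 protein-coding genes with a mean of at least 10 CPM, acinar genes left out, 30.5% of the shortest quintile by exonic length (401 to 2996 bases) were higher with cadmium and 70.8% of the longest (8462 to 123179 bases). The share rose through the quintiles between, at 35.4, 47.1 and 57%. At an unadjusted p under 0.05 the shortest quintile held 23 higher and 78 lower genes and the longest 94 higher and 14 lower. The medians behind these counts were small, −0.031 in the shortest and 0.031 in the longest quintile. The median level of the longest quintile was −0.019, −0.031, 0.0041, 0.032 and 0.018 log2 units from the vehicle mean in vehicle and 0.038, 0.022, 0.039 and 0.030 in cadmium libraries. Vehicle libraries 4 and 5 lay with the cadmium libraries there, and vehicle libraries 1 and 2 opposite. In the shortest quintile cadmium library 4 was lowest at −0.063.

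With a length trend removed from each library the share of higher genes was 45.7 to 53.7% in the 5 quintiles. The trend was fitted to these same data, so flatter quintiles follow from how the correction is built and are no separate result. The same holds for smaller shifts in lists of short genes. Proteasome genes, with a median exonic length of 2808 bases, then had 10 of 31 higher (median −0.018). Of the 31, 2 were lower at an unadjusted p under 0.05, against 361 of all 18080 genes in that fit. Oxidative phosphorylation genes, at a median of 1972 bases, had 24 of 47 higher (median 0.00066). The acinar list was still higher in 37 of 37 genes (median 0.65) and the macrophage list lower in 27 of 27 (median −0.36). The cause of the length trend was not tested.

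**Figure D5:**
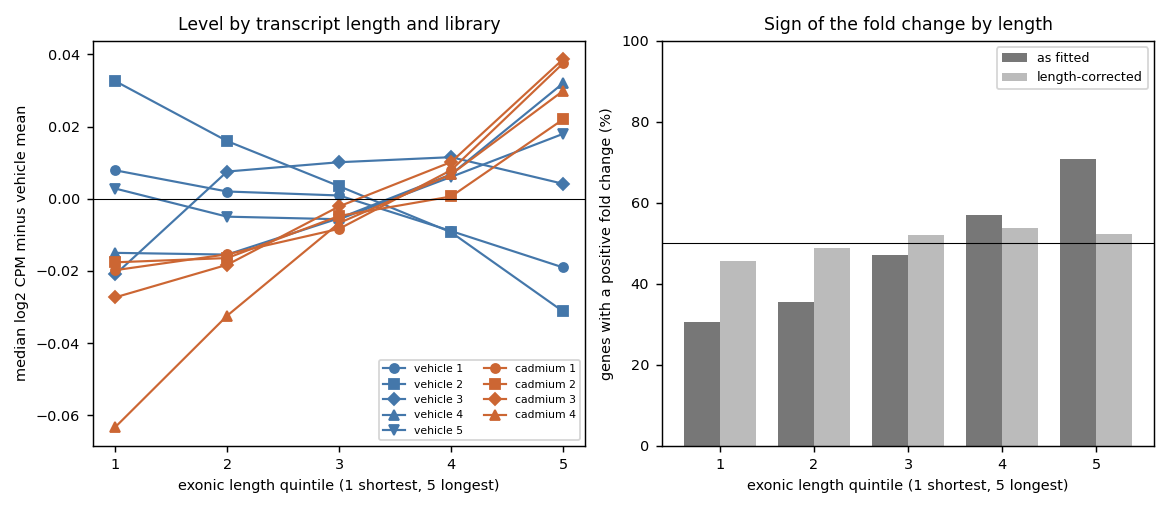
Left, median log2 CPM minus the vehicle mean in each quintile of exonic length for each library (vehicle blue, cadmium orange, 1 marker shape per library number); right, percent of genes with a positive fold change in each quintile, as fitted (dark bars) and with the length trend removed (light bars). The dark bars climb from 30.5 to 70.8%, and the light bars stay between 45.7 and 53.7%, as the correction is built to make them.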

How the data were processed

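RNA-seq of islets was analysed in 9 libraries, 5 vehicle and 4 cadmium. The values are raw read counts per Ensembl gene, deposited by the authors with no normalization. The submitters' processing notes name cutadapt 1.13, STAR, HTSeq 0.6.1p1, DESeq2 and mm10. Annotation release, strand setting and the treatment of reads mapping to several places were not given in the sources used here, so near-identical, overlapping and antisense genes are uncertain. Of 54232 gene IDs 54079 (99.72%) matched a symbol, and 97 symbols stood on several IDs. Coordinates and exonic lengths come from GENCODE vM21 (GRCm38).

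Libraries of 1 group were compared by chi-square over genes with at least 20 reads. The lowest of 16 pairs was 15.3 per degree of freedom, so all were kept as separate samples. Counts were filtered with filterByExpr (minimum count 10, minimum total 15), scaled by TMM and tested with edgeR 4.0.16 in R 4.3.3, two-sided, with Benjamini-Hochberg adjustment over 18080 genes and a threshold of 0.05. The standard error is the fold change over the root of the F statistic, and intervals are 95%. DESeq2 1.42.0 and limma-voom 3.58.1 served as alternatives. Other alternatives were RLE size factors, TMM without acinar and Reg genes, no count filter, the replicate number as a block, the acinar share as a covariate and each library left out. Length-corrected offsets and fits without vehicle libraries 1 to 3 or 4 and 5 were added after seeing the data. List scores are mean log2 CPM (prior count 2) minus the vehicle mean. The fit was tested on simulated data.

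Genes named are a panel of 22, the 10 higher and 10 lower genes of smallest p, the 2 members of smallest p in each of 37 lists, and genes called by DESeq2, clone names left out, 105 in all. Of 841 list entries 840 matched. Members and lists were chosen with earlier results of these data known, and lists carry no test of their own. The promoter windows are RefSeq's.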

Additional observations from a re-analysis of the deposited data

Results flagged for a closer look

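In each group the sample farthest from the others was compared with the group's whole range, using Dixon's 95% critical values, over 292 group values. Such a gap was found for 14, where chance alone gives about 1 in 20. No explanation was weighed.

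Among hormone and stress genes, Ppy was at 3380 CPM in vehicle library 2 against 1931 to 2289 CPM in the other vehicle libraries, and Stc2, a secreted glycoprotein gene of the integrated stress response, at 0.522 CPM in vehicle library 4 against 1.12 to 1.32 CPM. Irf1 was at 61.8 CPM in cadmium library 4 against 44.1 to 46.7 CPM in the other cadmium libraries. Gmds was at 24.3 CPM in the same library against 25.4 to 25.6 CPM. Ighv6-6 was at 0.0376 CPM in cadmium library 2 and 0 in the others. Eno1, a glycolytic enzyme gene, was at 28.3 CPM in vehicle library 1 against 23.3 to 24.6 CPM.

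Among epithelial genes, Cftr was at 0.939 CPM and Krt19 at 8.83 CPM in vehicle library 5, against 0.454 to 0.512 CPM and 2.51 to 3.75 CPM in the other vehicle libraries. Wt1, a mesothelial gene, was at 0.628 CPM in vehicle library 1 against 0.0914 to 0.201 CPM.

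Among list scores (mean log2 CPM minus the vehicle mean), Reg family genes were at −1.30 in cadmium library 3 against 0.016 to 0.068 in the other cadmium libraries. Adipocyte and mesothelial markers were at 0.46 in cadmium library 2 against −0.062 to −0.028. NRF2 targets and glutathione genes were at 0.012 in cadmium library 4 against 0.089 to 0.098. Fatty acid oxidation genes were at −0.11 in vehicle library 4 against 0.013 to 0.043 in the other vehicle libraries, and proteasome subunits at −0.047 in vehicle library 3 against 0.0039 to 0.019.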

How the results depend on the processing

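The count of edgeR calls was 0 under limma-voom, RLE size factors, TMM without acinar and Reg genes, no count filter, length-corrected offsets, the acinar covariate, the replicate block and without vehicle libraries 1 to 3, and 11 by DESeq2. Leaving out each library gave 0 to 1 calls. Without vehicle libraries 4 and 5, left out after their place on the first component was seen, edgeR called 89 genes (13 higher, 76 lower), a count that this choice of libraries shapes. Genes at an unadjusted p under 0.05 numbered 923 with all libraries, 602 (without vehicle library 3) to 1536 (without vehicle library 4) with 1 library left out, 801 without vehicle libraries 1 to 3 and 2746 without vehicle libraries 4 and 5. The replicate numbers were not taken as pairs, since same-numbered libraries correlated at 0.062, 0.144, −0.0784 and 0.137 and 1 of 4 best with its own number. With the replicate block 1163 genes had an unadjusted p under 0.05.

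The acinar share differed by 1.12 to 2.62 points when each library was left out, and the insulin share by −1.71 to −0.68. Of 105 named genes 88 kept their sign throughout. Under the acinar covariate Nqo1 was at −0.16, Ins1 at 0.014, Pdx1 at −0.068, Mafa at −0.018, Cacna1d at −0.030, Prdx4 at −0.037 and Slc38a5 at −0.012. Nqo1 was at −0.00073 with no count filter and Hspa5 at −0.0021 by limma-voom. Without vehicle libraries 1 to 3 Hmox1 was at 0.046, Hspa1b at −0.39, Hspa5 at −0.12, Ddit3 at −0.11, Slc2a2 at −0.25, Slc30a8 at −0.061, Cacna1d at −0.0049, Fcgrt at 0.019, Maf at 0.24 and Esam at 0.023. Without vehicle libraries 4 and 5 Nqo1 was at −0.053 and Ppy at −0.030. With each library left out, values ranged from −0.18 to 0.00048 for Hmox1, from −0.068 to 0.075 for Nqo1, from −0.10 to 0.35 for Hspa1b, from −0.049 to 0.074 for Hspa5, from −0.075 to 0.095 for Pdx1, from −0.032 to 0.16 for Slc2a2 and from −0.039 to 0.082 for Cacna1d. The cause of these turns was not tested. The median standard error was 0.29 log2 units for genes under 1 CPM and 0.058 for genes of 10 to 100 CPM.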
